A study of Mus musculus with 28 samples.

Results

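The comparison described here set neural stem cell lines grown out of the postnatal mouse lung against cells of the lung itself. Its members were 5 of the 28 polyadenylated RNA sequencing libraries of the series, chosen by name: 3 libraries of Sox2-GFP lung pNSCs (peripheral neural stem cells) and 2 libraries labelled only Lung. The pNSCs came from mice in which GFP is knocked in at *Sox2*, so that cells with an active *Sox2* locus fluoresce. Lungs of mice around postnatal day 1 to 5 were dissociated, GFP-positive cells were sorted, and the cells were kept on gelatin in NSC medium with 10 ng/mL EGF and 10 ng/mL bFGF for 3 weeks, after which clusters were picked by hand and expanded. Because the reporter was used for the sort, the level of *Sox2* itself is given as a description. The labels give C57BL/6 as the strain of every group, whereas the methods of the study name wild-type mice of CD1 or mixed CD1 and C3H stock and state that transgenic mice were crossed to these, so the strain is uncertain. For the lung libraries the labels give neither age nor sort nor culture, so that culture, growth factors, sorting and any difference in age or sex go with the lineage contrast and cannot be told apart from it. The same 2 lung libraries also serve as the reference of a second lung experiment, with lines from adult Nes-GFP mice. The Sox2-GFP brain NSCs (3 libraries), cultured with the same growth factors, were fitted together with the 5 libraries as a neural reference and are meant by brain NSCs where no other group is named, and the adult Nes-GFP lung pNSCs and their brain NSCs (2 libraries each) entered a wider fit. The study describes the libraries of a group as biological replicates, and the sources used here do not say how many mice or picked clusters they stand for, so the p-values measure the spread between these samples only.

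Neural stem cells are self-renewing cells of the central nervous system that give rise to neurons, astrocytes and oligodendrocytes. They are recognised by the transcription factors of the SOXB1 family (*Sox1*, *Sox2*, *Sox3*), by glial fatty acid and glutamate handling genes such as *Fabp7* and *Slc1a3*, and in culture they divide in response to EGF and FGF. The lung is an endodermal organ whose gas exchange surface consists of type I and surfactant-producing type II alveolar cells beside a dense capillary endothelium. Its airways carry club and ciliated cells, and fibroblasts, smooth muscle and resident leukocytes fill the remaining space. Peripheral nerves, pulmonary neuroendocrine cells and neural crest derivatives are its known neural elements.

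The 3 pNSC libraries held 20411624 to 22068290 counted reads and the 2 lung libraries 19364328 and 16700710. Levels are cpm (counts scaled to library size, with TMM scaling factors), which are not corrected for gene length, so levels are compared between samples and not between genes. A count of 3 in a library, the limit that a count of 0 allows, corresponded to 0.133 to 0.144 cpm in the pNSCs and to 0.166 and 0.190 cpm in the lung. Where the lower group lay under that limit the fold is written as a lower bound. Limits of this kind cover counting error only. Genes with more than 3 counts numbered 14479 to 14562 in the pNSCs and 16628 to 16786 in the lung. Mitochondrial transcripts took 2.83% to 2.85% of the pNSC reads and 1.37% to 1.39% of the lung reads. Globin transcripts took 0.121% to 0.123% of the lung reads and were at 0 in all 3 pNSC libraries. Replicates lay close together, with a mean chi-square per gene of 1.16 to 1.28 between pNSC libraries and of 1.85 between the lung libraries, where counting error alone gives 1.

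Of 16234 genes tested, 9136 (56.3%) were called, that is, had an adjusted p under 0.05 (Benjamini-Hochberg, edgeR quasi-likelihood test) together with a change of at least 1 on the log2 scale. The pNSCs had 3463 genes higher (21.3%) and 5673 genes lower (34.9%) than the lung. With so large a background, a list of genes is read below against these percentages. The median log2 fold change over all genes was -0.12, and another scaling moved it to -0.20 or 0.00. Samples of both groups did not overlap for 15079 genes (92.9%), so absence of overlap carries little weight here. Across the 16425 genes of the wider fit, log2 levels of the pNSCs correlated at r = 0.551 with the lung, at 0.971 with the Sox2-GFP brain NSCs and at 0.975 with the adult Nes-GFP lung pNSCs. The brain NSCs of the 2 experiments correlated at 0.955 with each other. A difference from the Sox2-GFP brain NSCs alone therefore need not hold for the brain NSCs of the Nes-GFP experiment. The lung libraries belong to the Nes-GFP experiment as well, so an alternative shifted the lung by the difference between the brain NSCs of both experiments, and the results that turned in that shifted contrast are named below. The correlations are descriptions over genes, which are not independent replicates. For most genes named below the adjusted p was too small to be represented by the software, and the standard error (SE) of the log2 fold change is given in its place. In bulk RNA a gene expressed by fewer cells and a gene with less RNA per cell cannot be told apart.

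**Figure D1:**
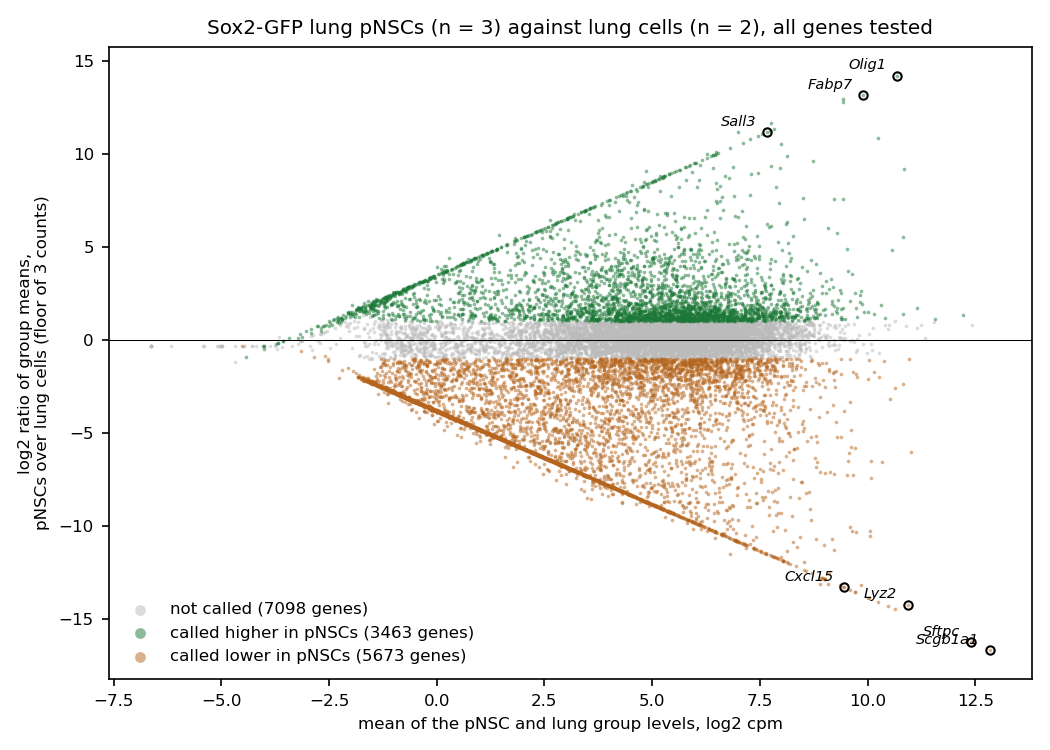
Each point is a gene of the 16234 tested, with its mean level over both groups on the horizontal axis. The vertical axis gives the log2 ratio of its pNSC mean over its lung mean, with means under 3 counts set to that limit. Called genes are coloured by direction. Of the genes, 7098 were not called, and more of the called genes lie below 0 (5673 called lower) than above (3463 called higher).

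The genes that gained most among those reaching 50 cpm in the pNSCs included *Olig1*, *Fabp7*, *Olig2*, *Ncan*, *Pcdh10*, *Col11a1*, *Gria4*, *Sall3*, *Astn1*, *Grm5* and *Ptn*. Most of these genes are known from neural progenitors, glia or neurons. *Olig1*, a basic helix-loop-helix factor of the oligodendrocyte lineage (chr16:91269772-91271933 in GRCm38), stood at 3265, 3343 and 3311 cpm in the pNSC libraries and at 0 in both lung libraries, at least 18594-fold higher. Its neighbour *Olig2*, which specifies motor neuron and oligodendrocyte progenitors, had 1385, 1386 and 1380.4 cpm against 0 in both lung libraries, at least 7782-fold higher. *Fabp7*, the brain lipid-binding protein of radial glia, had 1911, 1872 and 1944 cpm against 0.110 and 0.317 cpm. The lung libraries thus held at most a few reads of these genes, and no pNSC library came near them. *Ncan*, the brain proteoglycan neurocan, had 1392, 1399 and 1377 cpm against 0.276 and 0.127 cpm, and *Ptn*, the growth factor pleiotrophin, 2393, 2409 and 2427 cpm against 1.38 and 1.27 cpm. Genes of neurotransmission were among the leading rises too. The AMPA receptor subunit gene *Gria4* had a mean of 257 ± 0.297 cpm (s.d., n = 3) against 0.110 ± 0.156 cpm (n = 2), and the metabotropic glutamate receptor gene *Grm5* 354 ± 5.24 cpm against 0.0910 ± 0.0506 cpm.

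The 12 genes that lost most were mostly products of lung epithelium, endothelium and macrophages: *Scgb1a1*, *Sftpc*, *Sftpb*, *Sftpa1*, *Lyz2*, *Slc34a2*, *Adgrf5*, *Cbr2*, *Inmt*, *Cyp2f2*, *Cdh5* and *Cxcl15*. *Scgb1a1* (chr19:9083636-9087958 in GRCm38), the secretoglobin of club cells, stood at 14943 and 14466 cpm in the lung and had no read in any pNSC library, at least 105837-fold lower. *Sftpc*, surfactant protein C of type II cells, stood at 10894 and 10820.1 cpm in the lung and at 0.0478, 0 and 0 cpm in the pNSCs, which is 1 read in 1 of 3 libraries. The lysozyme gene *Lyz2*, expressed by macrophages and type II cells, had 3892 and 3911 cpm in the lung and 0.0957, 0.466 and 0.0445 cpm in the pNSCs. The club cell oxidase gene *Cyp2f2* had 1688 and 1649 cpm in the lung and 0 in the pNSCs. Between the groups, the order was the same for all of these genes in every library, which follows from how they were chosen.

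Promoter windows of 4 of these genes are shown because they carry the contrast between the neural and the lung programme: 2 rises and 2 falls. Each window runs from 250 bases before to 50 after the annotated start of the gene (RefSeq, GRCm38.p6), is written 5′ to 3′ on the gene's own strand, and has every CG dinucleotide in capitals. The windows are chr16:91225300-91225599 (+ strand) for *Olig2*, chr10:57784673-57784972 (+) for *Fabp7*, chr14:41131538-41131837 (+) for *Sftpa1* and chr7:27119705-27120004 (+) for *Cyp2f2*.
Olig2: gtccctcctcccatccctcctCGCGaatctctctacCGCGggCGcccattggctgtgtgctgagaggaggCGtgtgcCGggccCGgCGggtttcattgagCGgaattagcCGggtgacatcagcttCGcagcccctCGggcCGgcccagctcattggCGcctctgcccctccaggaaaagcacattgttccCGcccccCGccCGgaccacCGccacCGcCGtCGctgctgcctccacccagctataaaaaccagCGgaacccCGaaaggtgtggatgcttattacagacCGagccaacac
Fabp7: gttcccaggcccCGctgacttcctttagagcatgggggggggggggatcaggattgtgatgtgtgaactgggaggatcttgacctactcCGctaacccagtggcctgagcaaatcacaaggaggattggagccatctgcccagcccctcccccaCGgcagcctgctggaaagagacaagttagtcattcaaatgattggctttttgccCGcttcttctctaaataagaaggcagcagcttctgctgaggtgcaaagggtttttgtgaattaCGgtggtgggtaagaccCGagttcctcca
Sftpa1: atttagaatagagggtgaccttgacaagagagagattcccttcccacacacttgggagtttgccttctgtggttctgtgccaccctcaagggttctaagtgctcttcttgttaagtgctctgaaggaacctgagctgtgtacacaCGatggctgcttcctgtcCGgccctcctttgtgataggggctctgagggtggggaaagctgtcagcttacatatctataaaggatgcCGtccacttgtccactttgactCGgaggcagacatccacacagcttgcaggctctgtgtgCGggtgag
Cyp2f2: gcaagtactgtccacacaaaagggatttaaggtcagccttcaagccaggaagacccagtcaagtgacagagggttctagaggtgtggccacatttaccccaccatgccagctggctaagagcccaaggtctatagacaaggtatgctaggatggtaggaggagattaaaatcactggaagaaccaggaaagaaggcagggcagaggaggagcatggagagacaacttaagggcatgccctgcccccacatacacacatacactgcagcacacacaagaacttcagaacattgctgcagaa
The *Olig2* window held 25 CG dinucleotides, that of *Fabp7* 6, that of *Sftpa1* 5 and that of *Cyp2f2* 0. Windows were listed for 8 of the 12 leading rises and for 9 of the 12 leading falls. The median number of CG dinucleotides was 9 in the rises (range 2 to 25) and 4 in the falls (range 0 to 30), against 19 over all tested genes with a listed window. Over the whole contrast the median was 21 for genes called higher, 11 for genes called lower and 22 for genes not called. The letters TATAAA stood on either strand in 2 of the 8 and in 3 of the 9 windows, against 7.78% of the windows of all tested genes, 7.06% for genes called higher, 11.2% for genes called lower and 14.2% of all 27025 listed promoters. These are descriptions of letters in a window, and methylation or binding at these sites was not measured.

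Of 22 transcription factors of neural stem cells, 19 were higher in the pNSCs and 1 was lower. The summed level of the list was 8146 to 8236 cpm in the pNSCs and 870 to 884 cpm in the lung, and the median log2 fold change over its members was 7.55, or 7.12 with genes absent from the lung set at the limit of 3 counts, against -0.12 over all genes. The lung reads of this list came mostly from *Nfib*, *Nfix*, *Tcf12* and *Nfia*, broadly used factors with means of 377, 191, 134 and 109 cpm. *Sox2*, whose locus drove the sorted reporter, stood at 292, 307 and 302 cpm in the pNSCs and at 15.1 and 15.2 cpm in the lung, which has airway cells known to express it. Its relative *Sox3*, which the sort did not use, had 306, 314 and 309 cpm against 0 in both lung libraries, and *Sox1* had 8.996, 9.09 and 8.32 cpm against 0 in both. All 3 members of the SOXB1 family were therefore present in each pNSC library, although *Sox1* was lower than in the brain NSCs, which had 52.95, 50.5 and 47.2 cpm, by a log2 fold change of -2.51 (SE 0.064). *Pax6*, a regulator of neural progenitors, had 53.9, 55.3 and 54.97 cpm against 0.166 and 0.190 cpm, a log2 fold change of 8.22 (SE 0.16). *Pou3f2* and *Pou3f3*, the neural POU factors, stood at 42.8 ± 0.467 cpm and 219.9 ± 1.22 cpm in the pNSCs and at 0 and 0.525 cpm in the lung.

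The members that did not rise were *Id4*, *Nfib* and *Nfix*. *Id4*, an inhibitor of basic helix-loop-helix factors, fell from 19.6 and 22.62 cpm in the lung to 6.17, 6.76 and 6.67 cpm. *Nfib* and *Nfix*, nuclear factor I genes used in lung as well as in brain, had log2 fold changes of 0.36 (SE 0.022) and 0.90 (SE 0.026) and were not called. One call in this list rests on very few reads: *Nr2e1* (tailless, a regulator of adult neural stem cells) had 0, 0.140 and 0.311 cpm in the pNSCs and 0 in the lung, while the brain NSCs had a mean of 24.9 cpm, and the call was lost without pNSC replicate 3 and under limma-voom. In the Sox2-GFP brain NSCs the summed level of the list was 7721 to 7900 cpm, and 6 members were lower in the pNSCs than there, where 9.99% of all genes were called lower. *Lhx2* and *Dbx2* were the 2 members called higher than in the Sox2-GFP brain NSCs, with 39.8 against 8.87 cpm and 223 against 101 cpm. The brain NSCs of the Nes-GFP experiment had 733 and 746 reads of *Lhx2*, near the 834 to 905 of the pNSC libraries. They had 1468 and 1544 reads of *Dbx2*, against 4742 to 4940 in the pNSCs.

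**Figure D2:**
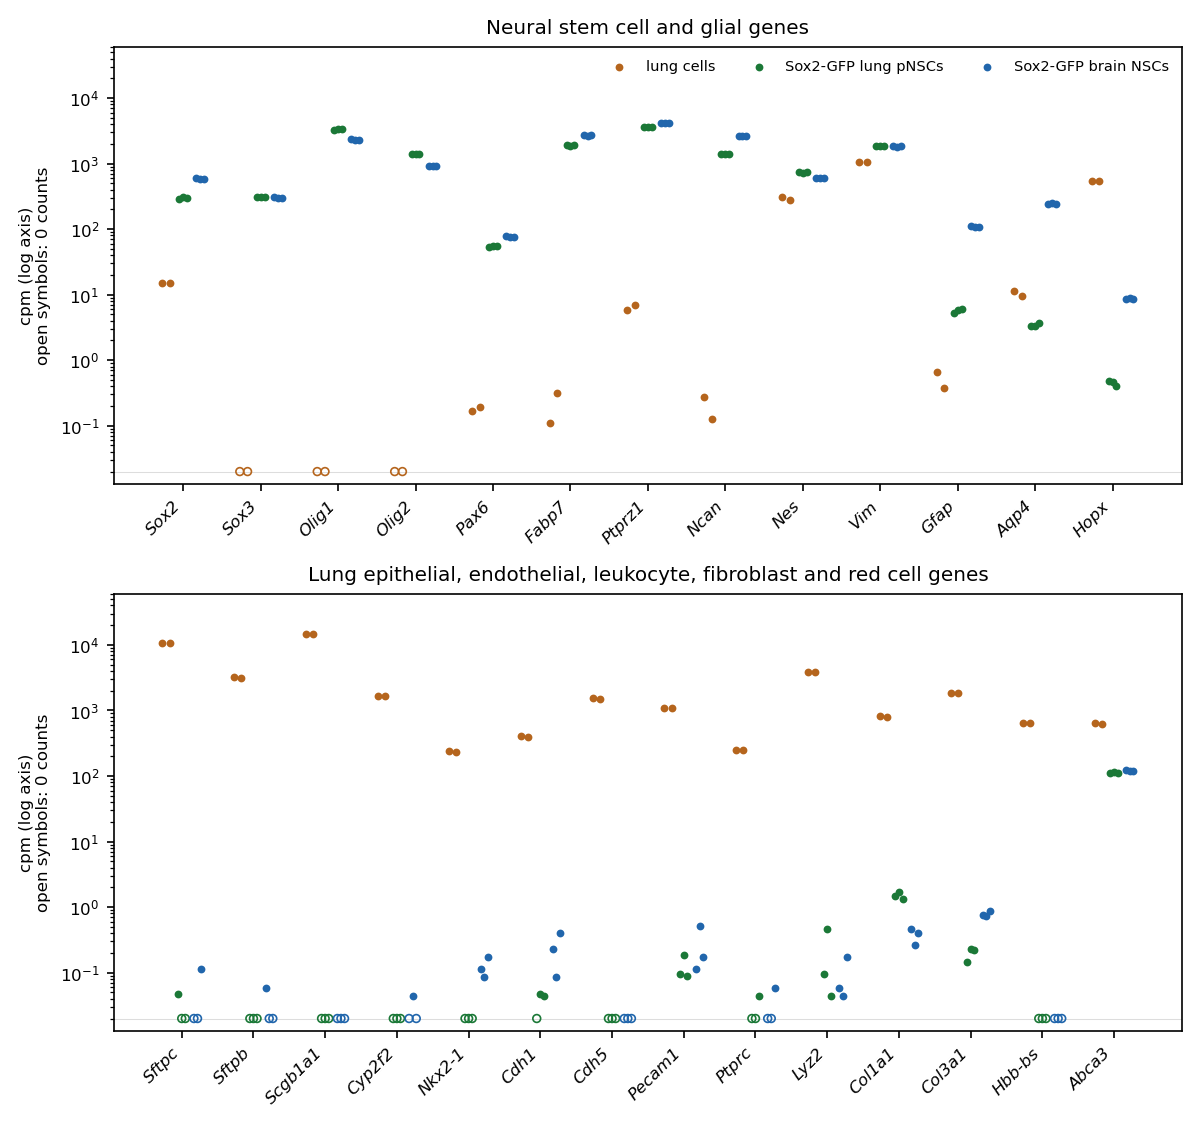
Level of 13 neural and 14 lung genes in cpm (log axis) in each lung, pNSC and Sox2-GFP brain NSC library, with open symbols for libraries that held no read of the gene. For most genes of the neural panel the pNSC points lie beside those of the brain NSCs, with Gfap, Aqp4 and Hopx below them, and for most genes of the lung panel the lung points stand far above both.

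Among 28 genes of neural stem cells and radial glia, 23 were higher in the pNSCs and 3 were lower, with summed levels of 20262 to 20448 cpm against 2570 to 2619 cpm. *Ptprz1*, a receptor phosphatase of glial progenitors, had 3649, 3641 and 3658 cpm in the pNSCs and 5.85 and 7.03 cpm in the lung, 567-fold higher. *Slc1a3*, the glial glutamate transporter, had 1413, 1427 and 1428 cpm against 48.3 and 47.4 cpm. The brevican gene *Bcan* had 1180.2 ± 4.97 cpm against 6.31 ± 0.595 cpm, and *Cspg5* (neuroglycan C) had 851 ± 0.850 cpm against 1.09 ± 0.645 cpm. The best known marker of the list, *Nes* (nestin), separated the groups far less. It stood at 736, 730.1 and 735 cpm in the pNSCs and at 305 and 280.5 cpm in the lung, a log2 fold change of 1.32 (SE 0.023). *Vim* (vimentin), also an intermediate filament of mesenchymal cells, had 1849, 1838 and 1867 cpm against 1064 and 1051 cpm and was not called at 0.81 (SE 0.018).

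The 3 falls in this list were *Hopx*, *Prom1* and *Aqp4*, each known from lung epithelium as well as from glia. *Hopx*, a marker of type I alveolar cells and of outer radial glia, had 544 and 532 cpm in the lung and 0.478, 0.466 and 0.400 cpm in the pNSCs. *Aqp4*, the water channel of astrocyte endfeet, fell from 11.3 and 9.38 cpm to 3.30, 3.31 and 3.65 cpm. *Gfap*, the intermediate filament gene of astrocytes, was higher than in the lung, with 5.26, 5.92 and 6.14 cpm against 0.662 and 0.380 cpm, a log2 fold change of 3.43 (SE 0.24), but the brain NSCs had 110.4, 107 and 108 cpm, and the difference from them was -4.23 on the log2 scale (SE 0.057). In the shifted contrast *Gfap* and *Aldh1l1* turned to lower than in the lung. *Aldh1l1* stood at 53.6 cpm in the pNSCs, 22.1 cpm in the lung and 500.1 cpm in the Sox2-GFP brain NSCs. The brain NSCs of the Nes-GFP experiment had far less of both genes, with 73 and 93 reads of *Gfap* and 1526 and 1654 of *Aldh1l1*. The pNSC libraries, of similar size, held 110 to 138 and 1113 to 1229 reads. Of the 28 genes, 9 were lower in the pNSCs than in the brain NSCs, where 9.99% of all genes were called lower.

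Genes of the receptors for the 2 growth factors in the medium and of their feedback loops were mixed, with 12 of 26 higher, 6 lower and 8 not called. *Egfr*, the EGF receptor, had 386, 385 and 390.4 cpm against 60.3 and 58.4 cpm, and *Fgfr1*, a receptor for bFGF, 211, 209 and 212 cpm against 103 and 95.03 cpm. *Erbb4*, a receptor for neuregulins, had a mean of 66.6 cpm against 1.23 cpm. Receptors of epithelial cells fell instead. *Fgfr2*, which the branching lung epithelium requires, had 209 and 208 cpm in the lung and 25.7, 23.8 and 23.1 cpm in the pNSCs, while *Erbb3* had 81.7 and 80.02 cpm and 0.239, 0.233 and 0.356 cpm. Downstream, *Etv4*, an ETS factor induced by FGF signalling, had 195, 197 and 199.7 cpm against 0.994 and 0.950 cpm, and the cyclin gene *Ccnd1* had 1139, 1129 and 1125 cpm against 196 and 195 cpm. *Etv5*, shared by type II cells and FGF-stimulated progenitors, was higher too, with 358, 363 and 349.7 cpm against 149.6 and 148 cpm. The Sox2-GFP brain NSCs, grown with the same factors, had lower levels of *Etv4*, *Etv5* and *Ccnd1* (83.3, 183 and 175 cpm). Against them 8 genes of the list were higher in the pNSCs, where 5.76% of all genes were. The brain NSCs of the Nes-GFP experiment lay nearer to the pNSCs for these 3 genes. Their libraries held 3162 and 3553 reads of *Etv4*, 7174 and 7412 of *Etv5* and 14127 and 14959 of *Ccnd1*. The pNSC libraries, of similar size, held 4073 to 4490, 7483 to 7863 and 23803 to 25290. *Dusp6*, a phosphatase induced by the same pathway, was not called against the lung, with 295, 293 and 291 cpm against 189.99 and 183 cpm.

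In the Notch pathway, by which neighbouring cells hold each other in the progenitor state, 4 of 22 genes were higher and 10 lower. The rises were the ligands *Dll1* (96.1 against 35.6 cpm, a call lost in the shifted contrast), *Dll3* (31.8 cpm against no read in the lung) and *Dner* (125 against 2.34 cpm), and the effector *Hes5* (47.4, 48.6 and 46.9 cpm against 0.221 and 0.253 cpm). The falls included genes of vessels, namely *Dll4* with 232 and 226 cpm in the lung and 0.622, 0.466 and 0.356 cpm in the pNSCs, *Notch4* with 286 and 276 cpm and 1.48, 1.31 and 1.25 cpm, and *Heyl* with 106 and 96.2 cpm and no read in any pNSC library. The receptors *Notch1*, *Notch2* and *Notch3* were not called, at log2 fold changes of 0.59, -0.91 and -0.63 (SE 0.023, 0.030 and 0.028), and neither was *Rbpj*, the DNA-binding mediator, at 0.22 (SE 0.057).

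All 30 genes of the cell cycle list were higher in the pNSCs, and their sum was 6240 to 6291 cpm against 541 to 548 cpm. *Mki67*, the proliferation antigen, had 834, 851 and 831 cpm against 49.2 and 51.7 cpm, a log2 fold change of 4.06 (SE 0.031). The mitotic kinase gene *Plk1* had 128, 129 and 132 cpm against 5.63 and 5.20 cpm and the replication helicase gene *Mcm5* 255, 259.9 and 267 cpm against 23.7 and 23.8 cpm. Genes of both S phase and mitosis rose. The Sox2-GFP brain NSCs, with a sum of 2892 to 2911 cpm, were lower as well. Of the 30 genes, 20 were higher in the pNSCs than in these brain NSCs, where 5.76% of all genes were. The brain NSCs of the Nes-GFP experiment lay nearer to the pNSCs for the 3 genes named. They had 17300 and 18462 reads of *Mki67*, 2260 and 2399 of *Plk1* and 4155 and 4307 of *Mcm5*. The pNSC libraries, of similar size, held 17428 to 18692, 2682 to 2963 and 5336 to 6005. Among 14 genes that restrain the cycle, 6 rose, 5 fell and 3 were not called. *Cdkn2a*, encoding the INK4A and ARF inhibitors, had 56.99, 54.95 and 58.5 cpm against 0.662 and 1.27 cpm. *Cdkn1a*, encoding p21, had 372, 367 and 365 cpm against 64.9 and 62.5 cpm, and the brain NSCs had a mean of 129 cpm. *Cdkn1c*, encoding p57, fell from 30.4 and 30.5 cpm to 1.53, 1.63 and 1.51 cpm. *Cdkn1b*, encoding p27, was not called at -0.11 (SE 0.033), and its sign turned under other scalings.

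Of 23 genes of sterol synthesis, 18 were higher and 5 were not called. *Hmgcs1*, which opens the mevalonate pathway, had 867, 871 and 878 cpm against 122 and 118 cpm, *Sqle*, the squalene epoxidase gene, 377, 386 and 391 cpm against 53.2 and 48.1 cpm, and *Cyp51*, the lanosterol demethylase gene, 336, 338 and 337 cpm against 36.3 and 36.2 cpm. With a limit of 2 on the log2 scale 8 of the 23 genes remained called, so that the rises of this list were moderate in size.

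Immediate early and heat shock genes, which tissue dissociation is known to induce, went the other way, with 19 of 22 lower and 2 higher. *Fos* had 647 and 649 cpm in the lung and 21.7, 19.3 and 21.2 cpm in the pNSCs, and *Fosb* 513 and 511 cpm and 0.813, 0.792 and 0.845 cpm. *Dusp1*, a stress-induced phosphatase gene, had 617 and 625 cpm and 11.1, 10.3 and 10.8 cpm, and *Klf2*, a factor induced by flow in endothelium, had 331 and 317 cpm and 2.44, 2.84 and 3.20 cpm. The summed level was 1745 to 1771 cpm in the pNSCs, 6322 to 6354 cpm in the lung and 1254 to 1272 cpm in the brain NSCs. The lung libraries thus differed from both cultured groups in this list, and the part of sample handling in the other falls was not tested. The exceptions were the constitutive chaperone gene *Hspa8* (924 against 336 cpm) and *Hsph1* (138 against 61.7 cpm), which were higher in the pNSCs.

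Markers of differentiated neural cells were mixed. Of 18 neuronal genes 15 could be tested, and 11 were higher than in the lung and 2 lower. *Map2*, a microtubule-associated protein gene that neural progenitors can also express, gave most of the reads of the list, with 1073, 1070.1 and 1082 cpm against 16.7 and 16.3 cpm. *Tubb3*, the neuronal tubulin gene, had 11.01, 10.4 and 10.6 cpm against 0.166 and 0.317 cpm, and *Dcx* (doublecortin) had 0.670, 0.699 and 0.889 cpm against 0.0552 and 0.0634 cpm and 38.98, 40.6 and 36.8 cpm in the brain NSCs. Apart from *Map2*, the genes called higher had means of at most 14.8 cpm in the pNSCs (*Elavl3*, a neuronal RNA-binding protein gene). *Stmn2* fell from 53.8 and 51.2 cpm in the lung to 0, 0 and 0.0445 cpm.

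Genes of the oligodendrocyte lineage were mixed too. Of 15 tested genes 6 were higher and 7 lower than in the lung, and 13 were lower than in the brain NSCs, where 9.99% of all genes were called lower. *Cspg4* (NG2), which lung pericytes also carry, had 379.6, 378 and 384 cpm against 50.8 and 48.5 cpm, and *Lhfpl3*, known from oligodendrocyte progenitors, 169.6, 166 and 178 cpm against 0.110 and 0.0634 cpm. *Pdgfra*, shared by oligodendrocyte progenitors and lung fibroblasts, was lower, with 19.9, 22.7 and 21.97 cpm against 466 and 470.2 cpm. *Sox10*, the factor that defines both committed oligodendrocyte progenitors and Schwann cells, stood at 0.191, 0.140 and 0.178 cpm in the pNSCs, 0.883 and 0.380 cpm in the lung and 8.37, 10.01 and 9.996 cpm in the brain NSCs. High *Olig1* and *Olig2* thus went together with *Sox10* at the level of a few reads, and the call of *Sox10* as lower than in the lung was lost without lung replicate 1. Of the myelin genes, *Mbp* had 1.24, 0.979 and 1.38 cpm in the pNSCs and *Mag* had no read there.

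Of 17 tested genes of neural crest and Schwann cells, 5 were higher and 12 lower than in the lung. The defining crest gene *Foxd3* had too few reads to be tested (mean 0.0155 cpm in the pNSCs and 0.0910 in the lung). *Ngfr*, the low-affinity neurotrophin receptor, was at 0.670, 0.746 and 0.756 cpm against 1.66 and 1.33 cpm, a call that was lost without lung replicate 1 or pNSC replicate 1. The 5 rises were *Pax3* (24.5, 27.3 and 24.5 cpm against 0 in both lung libraries), *Tfap2a* (18.4, 18.5 and 17.9 cpm against 0.607 and 0.507 cpm), *Twist1* (14.4 against 0.233 cpm), *Cdh19* (125 against 1.36 cpm) and *S100b* (18.1 against 1.49 cpm). All 5 were also found in the Sox2-GFP brain NSCs, at mean levels of 20.8, 4.16, 4.25, 76.6 and 66.6 cpm. In the same order, the brain NSCs of the Nes-GFP experiment had 0 and 0, 4 and 3, 17 and 6, 516 and 595, and 787 and 749 reads. The Nes-GFP lung pNSCs had 512 and 383, 330 and 293, 97 and 68, 1054 and 899, and 1299 and 1036 reads. The calls of *Pax3* and *Tfap2a* were lost in the shifted contrast. With no read or few reads of them in 1 brain NSC group, that contrast had little base for either gene.

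**Figure D3:**
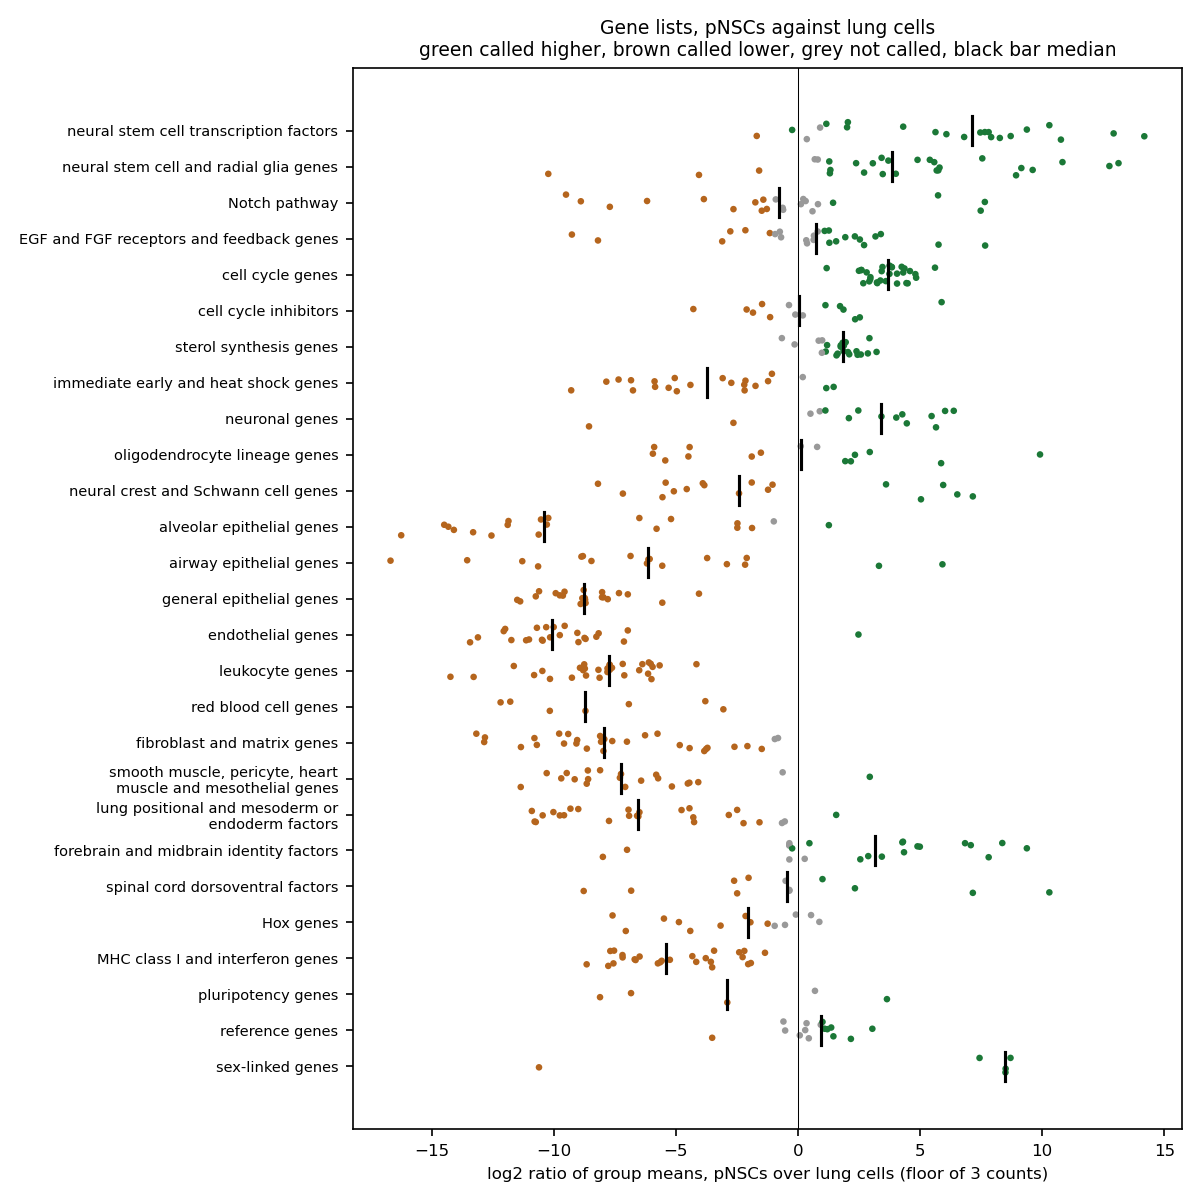
Log2 ratio of the pNSC mean over the lung mean for every tested gene of the 27 lists, with means under 3 counts set to that limit; each point is a gene and the black bar is the median of its list. The lists of neural progenitors and the cell cycle lie to the right of 0 (medians of 7.12 and 3.66), and those of lung lineages and leukocytes lie to the left.

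Most markers of the lung epithelium were at or near 0 in the pNSCs. Of 20 alveolar genes 18 were lower and 1 was higher, and 7 had no read in any pNSC library. *Sftpb*, surfactant protein B, had 3261 and 3145 cpm in the lung, and *Slc34a2*, the phosphate transporter of type II cells, 2440.3 and 2423 cpm, and both were at 0 in all 3 pNSC libraries. *Ager*, the type I cell receptor gene, fell from 2152 and 2132 cpm to 1.67, 1.82 and 1.65 cpm. The summed level of the list was nevertheless 897 to 912 cpm in the pNSCs against 31895 to 32070 cpm in the lung, and it was carried by genes that are not confined to alveoli: *Etv5* (above), *Lpcat1* (276 against 549 cpm, not called but called lower without lung replicate 1 and under DESeq2) and *Abca3* (112, 114 and 111 cpm against 636 and 619 cpm). The brain NSCs had a sum of 938 to 948 cpm for the same list. Of 18 tested airway genes 16 were lower. Both rises were genes of neuroendocrine cells: *Calca*, encoding calcitonin gene-related peptide, had 16.7, 14.6 and 17.3 cpm against 0.221 and 0.317 cpm, and *Chga* (chromogranin A) had 1.34, 2.10 and 1.87 cpm against 0.0552 and 0 cpm. In the shifted contrast *Calca* turned to lower, but the brain NSCs of the Nes-GFP experiment had no read of it, so that contrast had no base for it. The ciliated cell regulator *Foxj1* had 19.1, 18.1 and 18.1 cpm beside 79.6 and 78.6 cpm in the lung and 27.5 cpm in the brain NSCs.

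All 22 general epithelial genes were lower, and 12 of them had no read in any pNSC library. *Nkx2-1*, the factor that specifies lung epithelium, had 244 and 231 cpm in the lung and no read in the pNSCs, and *Epcam* had 66.1 and 67.1 cpm and 0.0957, 0 and 0.133 cpm. *Cdh1* (E-cadherin) had 409.8 and 395 cpm against 0, 0.0466 and 0.0445 cpm, while the neural cadherin gene *Cdh2* had 253, 253 and 259 cpm in the pNSCs and 15.9 and 15.8 cpm in the lung. The whole list summed to 4.05 to 5.45 cpm in the pNSCs and to 2487 to 2587 cpm in the lung.

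Markers of the other cell types of the lung were low as well. Of 24 endothelial genes 23 were lower, with *Cdh5* (VE-cadherin) at 1554 and 1521 cpm in the lung and at 0 in the pNSCs and *Pecam1* at 1102 and 1080.3 cpm and 0.0957, 0.186 and 0.0889 cpm. The single rise was *Prox1*, a factor of lymphatic endothelium that is also known from neural progenitors, with 40.8, 40.6 and 41.9 cpm against 7.84 and 6.97 cpm. All 32 leukocyte genes were lower, from a sum of 7961 to 7971 cpm to 4.98 to 6.76 cpm, and *Ptprc* (CD45) had 246 and 253 cpm in the lung and 0, 0 and 0.0445 cpm in the pNSCs. All 7 tested genes of red blood cells were lower, including the globin gene *Hbb-bs* with 639.7 and 655 cpm in the lung and 0 in the pNSCs. Of 30 genes of fibroblasts and matrix 28 were lower: *Col1a1* had 834 and 785 cpm and 1.48, 1.68 and 1.33 cpm, *Dcn* (decorin) 120.3 and 125 cpm and 0, 0.0466 and 0 cpm. *Sparc*, a matrix-binding glycoprotein gene, had 452, 451 and 453 cpm beside 2773 and 2721 cpm. Of 21 genes of smooth muscle, pericytes, heart muscle and mesothelium 19 were lower, and the heart myosin gene *Myh6*, at 425 and 403 cpm in the lung, stood at 1.58, 1.63 and 1.29 cpm in the pNSCs.

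All 26 genes of MHC class I and the interferon response were lower in the pNSCs, with a sum of 271 to 281 cpm against 5343 to 5386 cpm. *H2-K1*, a classical class I heavy chain, had 1038 and 1026 cpm in the lung and 6.79, 7.18 and 7.29 cpm in the pNSCs, and *B2m*, its light chain, 1082 and 1093 cpm and 93.02, 94.5 and 97.5 cpm. Class I genes of this locus are near-identical in places, so reads may be split among them. The interferon-induced *Ifit1* fell from 33.5 and 32.9 cpm to 0.0957, 0.0932 and 0.267 cpm. The brain NSCs had a sum of 230 to 236 cpm, and their *H2-K1* level was 20.04, 18.9 and 20.97 cpm.

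**Figure D4:**
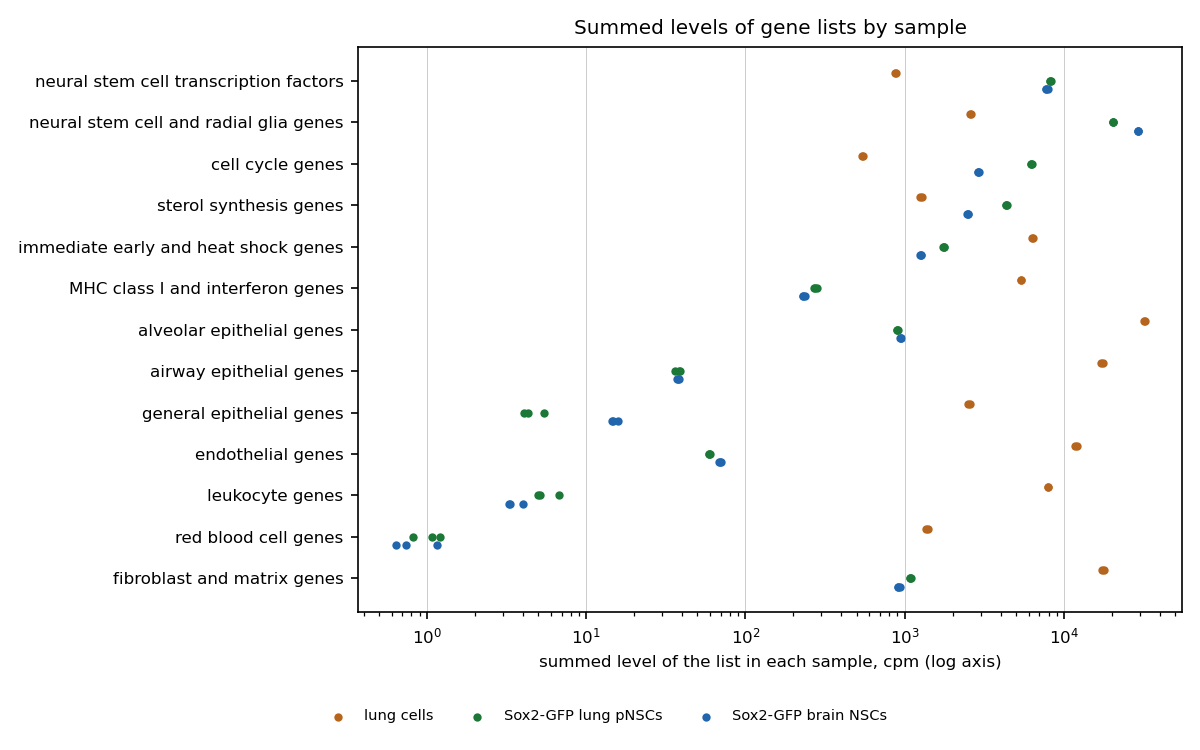
Summed cpm of 13 gene lists in each lung, pNSC and Sox2-GFP brain NSC library (log axis). Replicates of a group lie on top of each other, and leukocyte genes drop from 7961 to 7971 cpm in the lung to 4.98 to 6.76 cpm in the pNSCs.

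In the shifted contrast 1955 of the 9136 calls over all genes tested were lost, 964 of them for genes with no read in a brain NSC group. By list, 22 of 32 calls were lost for leukocyte genes, 11 of 22 for general epithelial genes, 9 of 18 for airway genes, 6 of 19 for alveolar genes, 6 of 24 for endothelial genes and 4 of 7 for red blood cell genes. Every one of the genes lost from these 6 lists had no read in at least one of the brain NSC groups, so that contrast had no base for them. The same held for 7 of the 12 leading falls (*Scgb1a1*, *Sftpa1*, *Slc34a2*, *Adgrf5*, *Inmt*, *Cdh5* and *Cxcl15*), which had no read in either brain NSC group.

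Reference genes, often taken as constant, were not so here: 7 of 15 were higher, 1 (*B2m*) was lower and 7 were not called. *Actb* had 2664, 2675 and 2621 cpm against 2584 and 2467 cpm, a log2 fold change of 0.071 (SE 0.017) whose sign turned under other scalings, and the glycolytic gene *Pgk1* had 348, 346 and 357 cpm against 42.01 and 42.95 cpm.

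Of 12 pluripotency genes 7 had too few reads to be tested. *Pou5f1* had a mean of 0.0315 cpm in the pNSCs and no read in the lung, *Zfp42* had none in either group, and *Nanog* was not called, with 0.287, 0.373 and 0.222 cpm against 0.110 and 0.253 cpm. *Esrrb* was the only one of 5 tested genes to rise by the edgeR test, with 4.55, 4.80 and 4.58 cpm against 0.110 and 0.634 cpm, while *Klf2*, *Tfcp2l1* and *Tdgf1* fell.

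The sex-linked genes separated the groups completely. *Xist*, transcribed from the inactive X chromosome, had 674 and 711 cpm in the lung and 0.335, 0.373 and 0.623 cpm in the pNSCs, and the Y-linked genes *Ddx3y*, *Eif2s3y*, *Kdm5d* and *Uty* had means of 64.5, 74.1, 64.2 and 30.8 cpm in the pNSCs and no read in the lung. Sex therefore goes with the contrast between the groups, and its part in the other results cannot be told apart.

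Transcription factors that mark position in the body differed in a less uniform way. Of 26 tested factors of lung, mesoderm and endoderm 23 were lower. *Tbx4* and *Tbx5*, which pattern lung mesenchyme, had means of 144 and 71.2 cpm in the lung and no read in the pNSCs, and *Foxf1* had 267 and 265 cpm and 0.0478, 0 and 0.0445 cpm. *Irx1* and *Irx2*, which lung epithelium and neural tissue share, were not called, at -0.54 (SE 0.045) and -0.66 (SE 0.048). The single rise, *Barx1*, reached a mean of 0.525 cpm, and without pNSC replicate 1 or pNSC replicate 2 it had too few reads to be tested.

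Among 36 factors of the forebrain and midbrain 22 could be tested, and 15 were higher than in the lung and 2 lower. *En1* and *En2*, factors of the midbrain-hindbrain boundary, had 24.9, 24.8 and 22.3 cpm and 58.6, 58.9 and 58.4 cpm in the pNSCs against no read and 0 and 0.0634 cpm in the lung, and the brain NSCs had lower levels, 3.29, 3.16 and 3.27 cpm and 15.6, 16.4 and 15.97 cpm. *Zic1*, of dorsal neural tissue, had 119, 119 and 116 cpm against 0 in both lung libraries. The factor *Otx2* of the forebrain and midbrain had no read in the pNSCs or in the lung, whereas the brain NSCs had a mean of 28.1 cpm. The engrailed genes were thus present without *Otx2*. *Nr2f2* (COUP-TFII), which vessels and mesenchyme express strongly, had 141 cpm in both lung libraries, 1.24, 1.12 and 0.934 cpm in the pNSCs and 44.1 cpm in the brain NSCs. Of 21 dorsoventral factors of the spinal cord 12 were tested, with 4 higher and 5 lower. *Dbx2*, of intermediate progenitors along that axis, had 227, 223 and 219.7 cpm against 0 in both lung libraries, and the ventral signal gene *Shh* had 15.2 and 16.5 cpm in the lung and 0.0957, 0.0466 and 0.0445 cpm in the pNSCs.

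The Hox genes, which record position along the trunk, differed by cluster. Of 39 Hox genes 14 were tested, and 9 were lower than in the lung and 5 not called. The HoxA cluster lies on chromosome 6. *Hoxa3* stood at 26.8, 26.8 and 26.5 cpm in the pNSCs and at 19.04 and 17.9 cpm in the lung, against 5.08, 5.20 and 5.40 cpm in the brain NSCs. *Hoxa7* had 6.12, 6.39 and 8.18 cpm, 7.78 and 6.91 cpm and 0.577, 0.823 and 0.287 cpm in the same order. *Hoxa5*, which the lung mesenchyme requires, had 37.04, 34.9 and 32.9 cpm in the pNSCs, 81.03 and 84.5 cpm in the lung and 5.89, 5.94 and 5.97 cpm in the brain NSCs. Levels of these 3 genes in the pNSCs were thus nearer to the lung than to the Sox2-GFP brain NSCs on a fold scale. The brain NSCs of the Nes-GFP experiment had 6.20 and 6.99 cpm of *Hoxa3*, 15.02 and 17.3 cpm of *Hoxa5* and 4.28 and 5.05 cpm of *Hoxa7* in the wider fit. Set against that group, *Hoxa5* of the pNSCs was nearer to the brain NSCs than to the lung, and *Hoxa7* lay within 2-fold of both. *Hoxa5* was called lower than in the lung, at -1.25 (SE 0.048), and higher than in the brain NSCs, at 2.55 (SE 0.074). In the shifted contrast its difference from the lung turned sign. *Hoxa3* was not called against the lung at 0.53 (SE 0.075) but was higher than in the brain NSCs by 2.35 (SE 0.085). *Hoxa7*, at -0.091 (SE 0.13) against the lung, changed sign without lung replicate 1 and under other scalings.

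The HoxB cluster on chromosome 11 behaved differently. *Hoxb4* had 27.6 and 26.2 cpm in the lung and no read in any pNSC library, at least 194-fold lower, and *Hoxb5* had 18.7 and 18.2 cpm and again no read. *Hoxb2*, *Hoxb3*, *Hoxb6* and *Hoxb7* were also at 0 in all 3 pNSC libraries, with mean levels of 2.96, 6.25, 4.09 and 1.25 cpm in the lung. The brain NSCs were low as well, so this near absence was not particular to the pNSCs. In the brain NSCs of the Nes-GFP experiment *Hoxb2* to *Hoxb7* had no read. The Sox2-GFP brain NSCs had 18, 13 and 12 reads of *Hoxb4*, 1, 0 and 0 of *Hoxb5*, and at most 18 per library of the others. Genes of the HoxC and HoxD clusters were at or near 0 in both groups. In the annotation the gene model of *Hoxa3* spans *Hoxa4*, *Hoxa5* and *Hoxa6* on the same strand, and *Hoxa5* and *Hoxa7* lie opposite the antisense gene *Hoxaas3*. Whether reads were counted by strand is not given in the sources used here, and the levels of these genes are uncertain to the extent that they share reads. The promoter windows of a gene from each cluster are shown, because both were expressed in the lung and only the HoxA gene was in the pNSCs: chr6:52204538-52204837 (- strand) for *Hoxa5* with 29 CG dinucleotides, and chr11:96318017-96318316 (+ strand) for *Hoxb4* with 14, in capitals as above.
Hoxa5: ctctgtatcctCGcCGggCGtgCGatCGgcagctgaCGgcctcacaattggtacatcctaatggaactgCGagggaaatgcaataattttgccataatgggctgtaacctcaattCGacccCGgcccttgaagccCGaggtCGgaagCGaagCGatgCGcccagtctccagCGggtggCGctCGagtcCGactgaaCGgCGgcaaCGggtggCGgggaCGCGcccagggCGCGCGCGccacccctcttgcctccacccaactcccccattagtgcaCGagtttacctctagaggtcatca
Hoxb4: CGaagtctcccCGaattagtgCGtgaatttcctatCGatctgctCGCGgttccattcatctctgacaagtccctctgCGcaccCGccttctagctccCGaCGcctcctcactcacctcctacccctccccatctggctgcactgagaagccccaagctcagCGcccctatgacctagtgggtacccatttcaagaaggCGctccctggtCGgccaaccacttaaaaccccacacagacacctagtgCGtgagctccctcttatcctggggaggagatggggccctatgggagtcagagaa

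**Figure D5:**
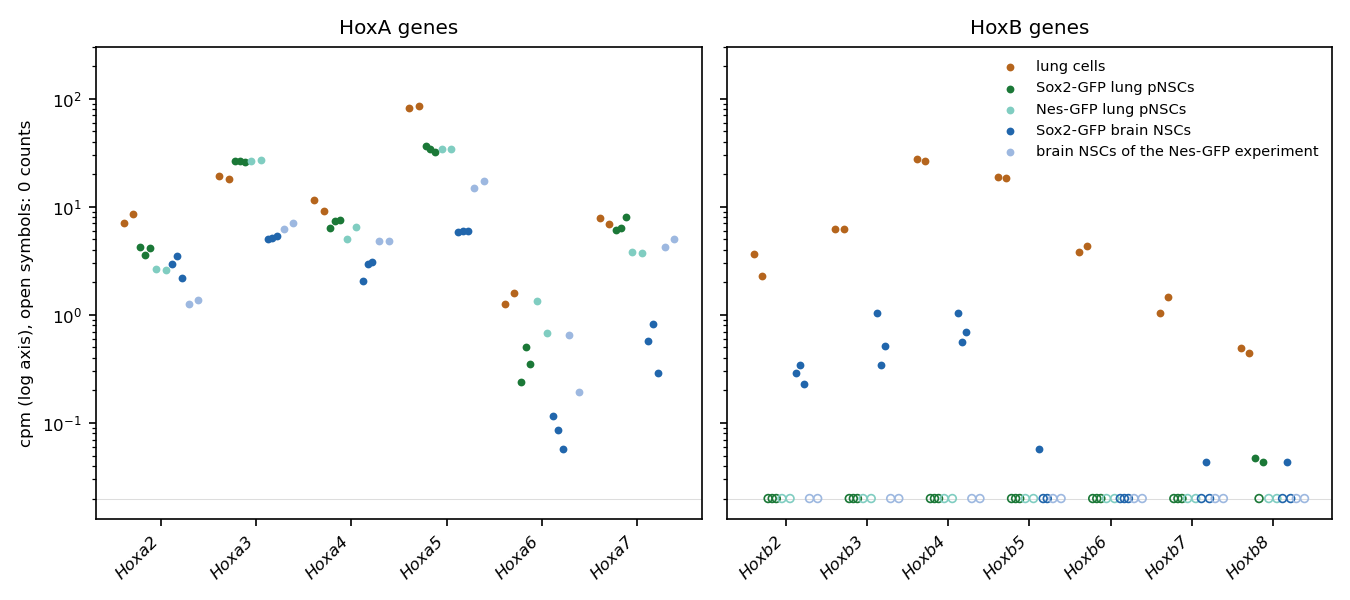
Level of HoxA and HoxB genes in cpm in each library of the lung, the Sox2-GFP and the Nes-GFP lung pNSCs and the brain NSCs of both experiments. In both pNSC lines the points of Hoxa3 lie nearer to the lung than to either brain NSC group, those of Hoxa5 lie between the lung and the Nes-GFP experiment's brain NSCs, and Hoxb2 to Hoxb7 are at 0.

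The adult Nes-GFP lung pNSCs gave the same comparison from another reporter, age and experiment, with the same lung libraries as reference. Against the lung they had 9223 of 16425 genes called (56.2%), with 3509 higher (21.4%) and 5714 lower (34.8%). Because the controls are shared, the values of both lines are given side by side. Directly compared, the Sox2-GFP and the Nes-GFP pNSCs differed in 1772 genes (10.8%), of which 953 (5.8%) were higher and 819 (4.99%) lower in the Sox2-GFP lines. *Hoxa5* stood at 36.7, 34.4 and 32.4 cpm in the Sox2-GFP and 33.9 and 34.5 cpm in the Nes-GFP pNSCs, a difference of 0.011 (SE 0.060). *Hoxa3* stood at 26.6, 26.5 and 26.1 and 26.5 and 26.8 cpm, a difference of -0.016 (SE 0.071), and *Hoxb4* had no read in either line. *Hoxa7* stood at 6.07, 6.31 and 8.06 cpm and at 3.85 and 3.70 cpm, and the latter lay nearer to the brain NSCs of its own experiment (above) than to the lung. *Sox1* was lower in the Sox2-GFP lines, with 8.92, 8.98 and 8.19 cpm against 39.97 and 36.9 cpm. Of 25 forebrain and midbrain factors tested in the wider fit, 13 were lower in the Sox2-GFP lines and 1 was higher.

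By the rule for naming genes, those most in excess in the Sox2-GFP lines were the Y-linked *Eif2s3y*, *Ddx3y* and *Kdm5d*, followed by *Tagln2*, *Mfsd2a* and *Pcdhgb6*. *Tagln2*, an actin-binding protein gene, had 59.8, 57.4 and 57.3 cpm in the Sox2-GFP lines, 0.285 and 0.168 cpm in the Nes-GFP lines and 564 and 556 cpm in the lung. *Mfsd2a*, a lipid transporter gene, had 65.6, 67.8 and 71.1 cpm against 1.61 and 1.23 cpm, and the protocadherin gene *Pcdhgb6*, whose cluster shares exons among its members, 64.3, 60.1 and 60.3 cpm against 1.52 and 1.29 cpm. Those most in deficit were *Xist*, *Gabra2*, *Thrsp*, *Cd93*, *Calca* and *Akap12*. *Calca*, named above as a rise over the lung, had 16.5, 14.5 and 17.1 cpm against 149 and 148 cpm, and *Gabra2*, a GABA-A receptor subunit gene, 4.32, 3.68 and 4.25 cpm against 64.7 and 68.3 cpm. The Nes-GFP lines carried *Xist* at 1822 and 1887 cpm and no read of *Ddx3y*, *Eif2s3y*, *Kdm5d* or *Uty*, so reporter, age, experiment and sex change together in this comparison and cannot be told apart. When the difference from each line's own brain NSCs was compared between the experiments, 2478 of 16425 genes (15.1%) differed, 991 (6.03%) toward higher and 1487 (9.05%) toward lower values in the Sox2-GFP experiment.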

How the data were processed

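RNA was selected for poly(A), made into libraries with an Ultra kit and sequenced single-end. The authors aligned reads to GRCm38 with HISAT2 and deposited raw HTSeq counts per gene, and the mode and strand setting of the counting are not given in the sources used here. Counts of 8 libraries (12 in the wider fit) passing filterByExpr were scaled by TMM and tested two-sided with edgeR 4.0.16 in R 4.3.3 (one coefficient per group, no covariate, Benjamini-Hochberg over all genes tested). The pipeline was also run on simulated counts with few changed genes, which does not cover a contrast as wide as this. DESeq2 1.42.0, limma 3.58.1 and the other alternatives are reported at the end. Named genes were the 12 largest rises and falls reaching 50 cpm, the 6 largest differences in each direction between the pNSC lines, and leading or defining members of the 27 lists. A further rule, for genes of at least 5 cpm within 2-fold of the lung and under 0.5 cpm in the brain NSCs, was met by 0 genes. Members, lists and rules were chosen with earlier results of these data known. Of 178 named genes, 96 overlap another gene model (GENCODE), so some of their reads may be shared. Promoter windows were taken from RefSeq. Some genes that met these rules are not reported here.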

Additional observations from a re-analysis of the deposited data

Results flagged for a closer look

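Of 23 reported genes with the largest changes against the lung, 2 differed between the 2 lung pNSC lines in the direct test (edgeR quasi-likelihood, over 16425 genes), where 10.8% of all genes did. *Astn1* (astrotactin) was lower in the Sox2-GFP than in the Nes-GFP lines by a log2 fold change of -1.11 (SE 0.023), with 383, 366 and 366 cpm against 795 and 811 cpm. *Col11a1*, a chain of fibrillar collagen XI, was higher by 1.47 (SE 0.029), with 423, 423 and 425 cpm against 154 and 151 cpm. In both cases the samples of the lines did not overlap, which carries little weight because the genes were flagged by that direct test. Reporter, age, sex and experiment differ between the lines, and their parts cannot be told apart. No group of this comparison had the 4 samples needed to test for an outlying library.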

How the results depend on the processing

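The count of 9136 genes called between pNSCs and lung stayed within 1.5 times under each other test and scaling: 8905 with DESeq2, 9133 with limma-voom, 9217 with upper-quartile scaling, 9052 with RLE size factors, 9312 by library size, 9304 with centring, 9103 with only the 2 groups, 9571 with all 28 samples, 8491 with a test against the fold limit and 10500 without a filter, and between 9070 and 9168 when 1 library was left out. It moved to 14736 (6866 higher) without a fold limit, to 6025 (1658 higher) with a limit of 2 on the log2 scale and to 5581 (3178 lower) for genes with a mean count of at least 100. Without a fold limit the counts were 10636 (5308 higher, 5328 lower) against the brain NSCs, 8667 (4426 and 4241) between the pNSC lines, 8948 (4490 and 4458) for the difference of differences and 14637 (6799 higher) for Nes-GFP pNSCs against lung. By Spearman's measure the likeness to lung, Sox2-GFP brain NSCs and Nes-GFP pNSCs was 0.611, 0.972 and 0.981, and by Pearson's over all 21891 genes with a count 0.759, 0.981 and 0.983. Replicate numbers did not pair the samples: same-numbered libraries of pNSC and lung deviated from their groups with correlations of 0.0024 and -0.0047, and with the replicate block 9099 genes were called. *Actb* turned to -0.015 under DESeq2 and RLE and to -0.095 among genes with a mean count of at least 100, *Cdkn1b* to 0.011 by library size and 0.0095 by centring, and *Hoxa7* to 0.030 by library size, 0.028 by centring and 0.0026 without Lung replicate 1 (range -0.24 to 0.0026 when 1 library was left out). Where the lung was shifted by the difference between the brain NSC experiments, *Gfap* turned to -1.31, *Aldh1l1* to -1.40, *Egr1* to 0.93, *Calca* to -2.20, *Hoxa4* to 0.26, *Hoxa5* to 0.19, *Hoxa6* to 0.27, *Hoxa7* to 2.87, *Xist* to 2.10, *Ddx3y* to -0.36, *Eif2s3y* to -0.12, *Kdm5d* to -0.41, *Uty* to -0.54, *Akap12* to 2.82, *Cd93* to 0.42, *Mfsd2a* to -0.14, *Nfib* to -0.026 and *Pcdhgb6* to -0.23, since these genes differ between the 2 brain NSC groups. *Calca*, *Ddx3y*, *Eif2s3y*, *Kdm5d* and *Uty* had no read in the brain NSCs of the Nes-GFP experiment, so the shifted contrast had no base for them. That shifted contrast called 8793 genes (3816 higher, 4977 lower), and 1955 of the 9136 calls were lost in it. Genes of a few reads, such as *Nr2e1*, are limited by depth.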

Other observations

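Gene families gathered by symbol, chosen after the data were seen and from no fixed list, were counted in the pNSC and lung comparison, where 21.3% of all tested genes were called higher and 34.9% lower. Of 20 tested glutamate receptor genes 14 were higher and 4 lower. *Gria2* and *Gria3*, subunits of AMPA receptors, had 177, 178 and 181 cpm and 188, 193 and 202 cpm in the pNSCs against 0.662 and 0.380 cpm and 27.3 and 25.6 cpm in the lung. Subunits of the respiratory chain and ATP synthase were higher for 49 of 80 and lower for 6, with *Atp5b* at 2008, 1992 and 2019 cpm against 539 and 553 cpm. The median log2 fold change of these 80 subunits was 1.08, close to the limit of 1 used for calls. Mitochondrially encoded transcripts, given above, also took the larger share in the pNSCs. Of 82 ribosomal protein genes 15 were higher, 1 was lower and 66 were not called, and by library size or centring 29 were higher. Protocadherins gave 23 higher and 13 lower of 57, and potassium channels 26 higher and 39 lower of 82. *Kcnj10*, the inward rectifier of glia, had 193, 190.03 and 189 cpm against 0.497 and 0.760 cpm, and *Kcnk3*, a background potassium channel, 11.1, 12.6 and 10.8 cpm against 64.6 and 65.3 cpm.

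Collagens were lower for 33 of 42 and higher for 6, integrins lower for 23 of 30 and higher for 3, and claudins lower for 11 of 15 and higher for 1. *Col4a1*, of basement membranes, had 2207 and 2111 cpm in the lung and 22.7, 24.4 and 22.8 cpm in the pNSCs, and *Itga8*, of lung fibroblasts, 430.3 and 412 cpm and 2.78, 3.22 and 4.23 cpm. *Itgb8*, the integrin subunit of neural progenitors and glia that activates TGF-beta, had 490.3, 494 and 497 cpm in the pNSCs and 2.87 and 3.17 cpm in the lung. Chemokine receptors were lower for all 18 tested, and 13 of these calls were lost in the shifted contrast, 12 of them for genes with no read in at least one brain NSC group. Semaphorins and plexins, guidance signals of axons and vessels, were lower for 18 of 32 and higher for 5, with *Sema3c* at 618 cpm in both lung libraries and 3.45, 3.40 and 3.34 cpm in the pNSCs and *Sema5b* at 152, 152 and 154 cpm in the pNSCs and 1.71 and 0.760 cpm in the lung.

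With looser limits, also chosen after the data were seen, *Hoxa7* (above) and the potassium channel gene *Kcnk13* were the 2 genes with group means of 5 cpm or more in pNSCs and lung, within 2-fold of each other, and under 1 cpm in the Sox2-GFP brain NSCs. In the brain NSCs of the Nes-GFP experiment *Hoxa7* had 4.28 and 5.05 cpm, near the pNSC level, and *Kcnk13* 0.151 and 0.389 cpm. *Kcnk13* had 5.07, 4.66 and 5.34 cpm in the pNSCs, 6.51 and 7.79 cpm in the lung and 1.10, 0.866 and 0.804 cpm in the brain NSCs.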
